A study of Mustela putorius furo with 10 samples.

Results

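The genes described are 54 genes of central carbon metabolism, listed by name and pathway with earlier results of these data known. They comprise 27 genes of glycolysis and of the transport of glucose and lactate, 6 of the pentose phosphate pathway, 20 of the citrate cycle and the reactions that refill or drain it, and HIF1A. Of these, 39 could be named through the RefSeq ferret gene name of their target sequence, and all 39 passed the filter on dim probes, which asks for a Cy3 signal well above background on 4 or more arrays, and were tested among 26303 genes in all. They were 17 glycolysis genes, 5 pentose phosphate genes, 16 citrate cycle genes and HIF1A. The glycolysis genes SLC2A6, GPI, PFKL, PFKP, PFKFB4, ENO2, LDHA, LDHB, SLC16A1 and SLC16A3, the pentose phosphate gene TALDO1 and the citrate cycle genes CS, IDH3A, FH and ME3 were not named in this way. SLC2A6 and ENO2 were found through the sequence identifiers of the study's own gene table, and are described separately and left out of all counts.

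Peripheral blood mononuclear cells (PBMC), the lymphocytes, monocytes and related cells that a Ficoll gradient separates from blood, were taken from male ferrets 3 months old. The 6 control ferrets were kept at 22 °C and the 4 cold ferrets at 4 °C for 1 week, all on a free diet. Cold animals were housed individually, and the housing of the controls is not given in the sources used here. Heparin blood was taken from the heart under anaesthesia, and no genotype or drug differed between the groups. Each ferret had an array of its own, a 2-colour Agilent array that also held a pooled reference RNA. The ferret's RNA carried the dye Cy3 and the pool Cy5, with no dye swap. A value is the log2 ratio of Cy3 to Cy5, normalised by loess within the array. Above 0 the ferret had more of the RNA than the pool, and a difference of 1 between the groups is a doubling. How precise a value can be is limited by the number of arrays, 10. Since PBMC are a mixture, a change in the share of a cell type and a change in RNA per cell cannot be told apart.

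Glycolysis splits glucose into pyruvate in the cytosol, beginning with glucose uptake and phosphorylation by a hexokinase and ending with pyruvate kinase. The pentose phosphate pathway branches off after the hexokinase step and makes NADPH and ribose phosphate. The citrate cycle oxidises acetyl groups in the mitochondrion, and HIF1A is the oxygen-regulated subunit of a transcription factor that is known to act on many glycolysis genes. Resting lymphocytes rely largely on mitochondrial oxidation, whereas activated lymphocytes and myeloid cells are known for a high rate of glycolysis.

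In the loess-normalised ratio, 13 of the 17 glycolysis genes were higher in cold than in control, with a median log2 change of 0.38, and the median was also above 0 in the processed signals of the scanner software (0.35) and in the Cy3 channel alone (0.49). It was below 0 with each array centred on its median in place of loess (-0.59) and in the authors' value table (-0.053). The 16 citrate cycle genes were split, with 7 higher and 9 lower and a median of -0.08. Of the 5 pentose phosphate genes, 4 were higher, with a median of 0.17 that turned to -0.53 with median centring and to -0.011 in the authors' table. The median of all 26303 genes was -0.01, and 48.0% of them were higher in cold.

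After Benjamini-Hochberg adjustment over all genes, no limma p was under 0.05 for the 39 genes or for any other gene (0.00%), and the lowest adjusted p among the 39 was 0.0721. Without adjustment, 5 of the 39 (12.8%) had a limma p under 0.01, the threshold of the study's methods, as against 8.64% of all genes (5.21% higher and 3.43% lower). These were SLC2A3, HK3, ALDOA and TKT, which were higher in cold, and PFKFB1, which was lower. At an unadjusted p under 0.05 there were 14 of the 39 genes, as against 24.7% of all genes. Of them 12 (30.8% of the 39) were higher and 2 (5.13%) lower, where 12.2% of all genes were higher and 12.5% lower. Glycolysis held 9 of the 12, the pentose phosphate pathway 2 and the citrate cycle 1. The 12 became 7 without cold replicate 3, where 8.60% of all genes were called higher, and 6 without cold replicates 1 and 3, the arrays with the brightest Cy5, where 6.47% of all genes were. With median centring none of the 39 was higher at this threshold and 5 were lower, where 3.35% of all genes were higher and 26.4% lower. The authors' table had 1 of the 39 higher and 2 lower, where 8.68% of all genes were higher and 11.2% lower. The 4 cold values all lay above the 6 control values for 3 of the 39 genes (7.69%), as against 3.07% of all genes, and for no member did they all lie below (2.15% of all genes, and 5.22% in either direction). The 3 were SLC2A3, HK3 and ALDOA.

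**Figure D1:**
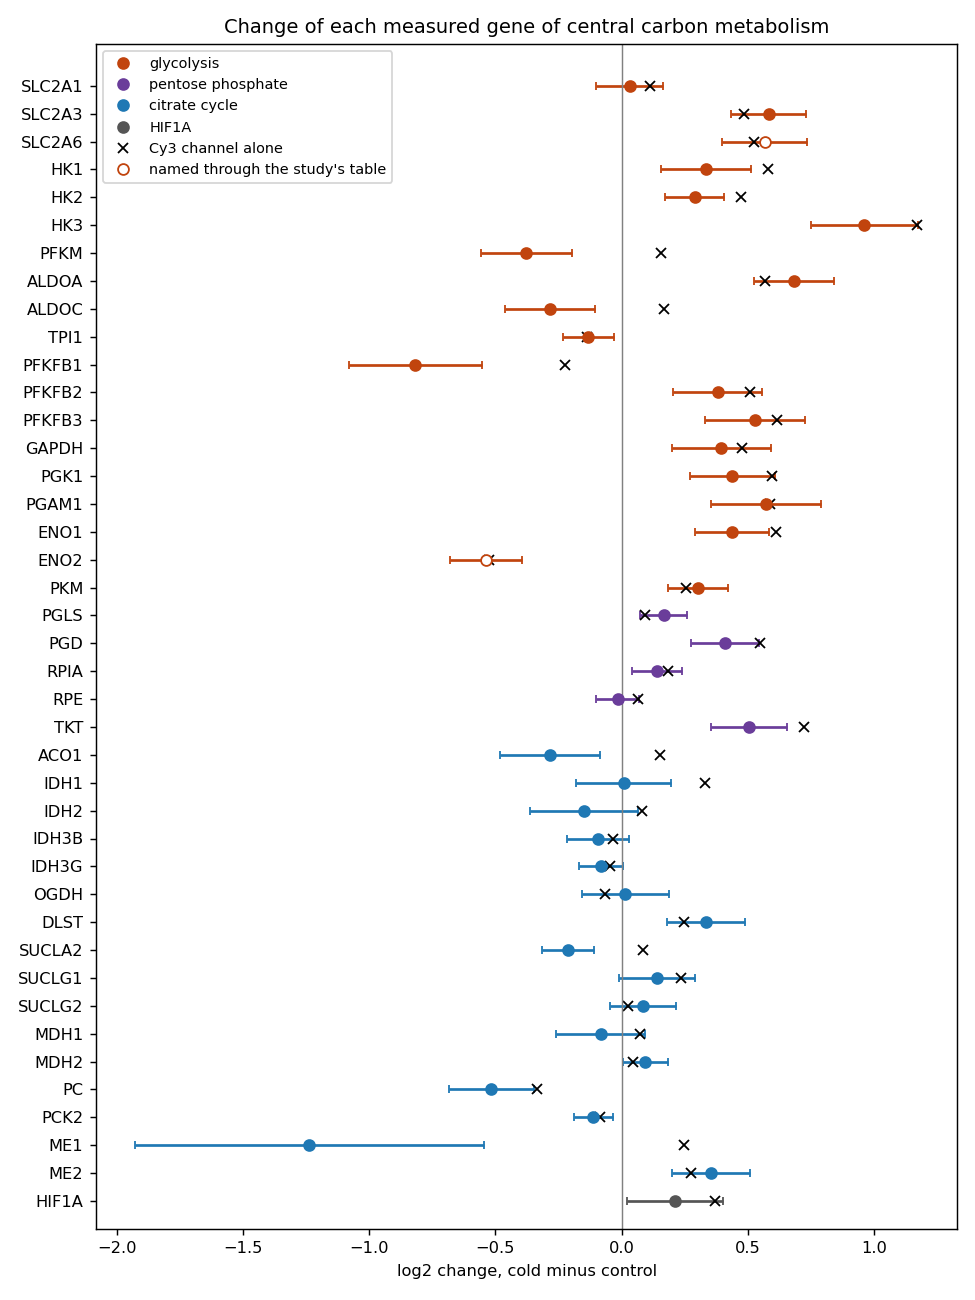
Log2 change of each measured gene, cold minus control, with its SE (coloured circles, loess-normalised ratio) and the same change in the Cy3 channel alone (crosses), where open circles are SLC2A6 and ENO2, named through the study's table. Glycolysis genes lie mostly to the right of 0 on both scales, with HK3 farthest at 0.96, whereas their median lies to the left of 0 with median centring (-0.59) and in the authors' table (-0.053).

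Glucose enters blood cells through facilitative transporters, of which SLC2A1 (GLUT1) is the widespread form and SLC2A3 (GLUT3) a high-affinity form. SLC2A3 had log2 ratios of 1.03, 1.21 and 1.37 in the lowest, median and highest control, and 1.60, 1.76, 2.31 and 1.47 in the cold ferrets. Each cold value was above every control value, and cold replicate 3 was the highest. The control mean of 1.20 ± 0.13 (SD, n = 6) compared with 1.79 ± 0.37 (SD, n = 4) for cold, which is a change of 0.58 ± 0.15 (SE, limma p = 0.00235, adjusted p = 0.0802, exact permutation p = 0.00476, two-sided, the smallest that 210 splits of 10 arrays allow). The change stood at 0.49 in Cy3 alone and at 0.12 in the authors' table, and turned to -0.34 with median centring. SLC2A1 differed by 0.033 (adjusted p = 0.905).

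SLC2A6 (GLUT6, a transporter of inner membranes in immune cells) was measured by the sequence XM_004757400. It is in the study's table of energy metabolism genes, which was chosen on these samples, so its direction is not independent evidence. Control ratios were 0.19, 0.32 and 0.84 (lowest, median, highest) and cold ratios 1.20, 0.55, 1.29 and 0.75. The cold values overlapped with the highest control, replicate 5, only. The log2 change was 0.57 ± 0.17 (SE, limma p = 0.00631, adjusted p = 0.101, exact permutation p = 0.0190). It was above 0 under every scaling run, but was 0.27 and past no threshold without cold replicates 1 and 3. Its p was under 0.01 in only 3 of the 10 fits that left out 1 array, and not with the processed signals or by the methods' t-test.

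Hexokinases phosphorylate glucose and so hold it in the cell, and all 3 were higher in cold on the loess scale and in Cy3 alone, but HK1 and HK2 were at -0.72 and -0.43 with median centring and HK1 at -0.15 in the authors' table. HK3, the hexokinase typical of myeloid cells, had control ratios of 0.72, 1.01 and 1.80 and cold ratios of 1.96, 1.87, 2.60 and 1.89. The groups did not overlap, although control replicate 5, at 1.80, came close to the lowest cold value. The control mean of 1.11 ± 0.39 (SD, n = 6) compared with 2.08 ± 0.35 (SD, n = 4) for cold, a change of 0.96 ± 0.21 (SE) or 1.95-fold (limma p = 0.000875, adjusted p = 0.0721, exact permutation p = 0.00952). This was the highest change among the 39 genes on this scale. HK3 stayed above 0 under every scaling run, from 0.24 with median centring, where it passed no threshold, to 1.17 in Cy3 alone, and its p was under 0.01 with any single array left out. HK1 and HK2 differed by 0.33 (adjusted p = 0.268) and 0.29 (adjusted p = 0.162). Within each array, HK3 less HK1 was higher in cold by 0.63 on average, with overlap between the groups.

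The other early steps gave no common direction. ALDOA, the aldolase that splits fructose 1,6-bisphosphate and the form of muscle and blood, had control ratios of -1.62, -1.32 and -0.89 and cold ratios of -0.66, -0.69, -0.30 and -0.74. No cold value was as low as any control value, and control replicates 3 and 5 were the nearest. The change was 0.68 ± 0.16 (SE), 1.61-fold (limma p = 0.00128, adjusted p = 0.0736, exact permutation p = 0.00952), with a p under 0.01 with any single array left out. In Cy3 alone ALDOA was 0.57 higher with an adjusted p of 0.0356 (limma), whereas it was at 0.11 in the authors' table and at -0.48 with median centring. ALDOC, the aldolase best known from brain, differed by -0.28, PFKM, the muscle form of phosphofructokinase, by -0.38 and TPI1, triosephosphate isomerase, by -0.13, each with a limma p over 0.05. In Cy3 alone ALDOC and PFKM were on the other side of 0, at 0.17 and 0.16.

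PFKFB enzymes set the level of fructose 2,6-bisphosphate, the main activator of phosphofructokinase. PFKFB1, the liver and muscle form, had control ratios of -1.14, -0.43 and -0.07 and cold ratios of -2.03, -1.01, -1.57 and -0.91. Control replicates 4 and 5 lay among the cold values, and cold replicate 1 was the lowest. The change was -0.82 ± 0.26 (SE, limma p = 0.00972, adjusted p = 0.115, exact permutation p = 0.0333). It rests on 4 of the 16 probes, since the others stayed below the filter, and in the Cy3 channel alone it was -0.23 (adjusted p = 0.384) and in the authors' table -0.053. Its p was under 0.01 in only 4 of the 10 fits that left out 1 array. PFKFB3, the inducible form, was 0.53 higher (adjusted p = 0.145, and at -0.44 with median centring) and PFKFB2 0.38 higher (adjusted p = 0.209). In PFKFB2 cold replicate 3 stood at 1.11 and the other cold arrays between 0.13 and 0.19.

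**Figure D2:**
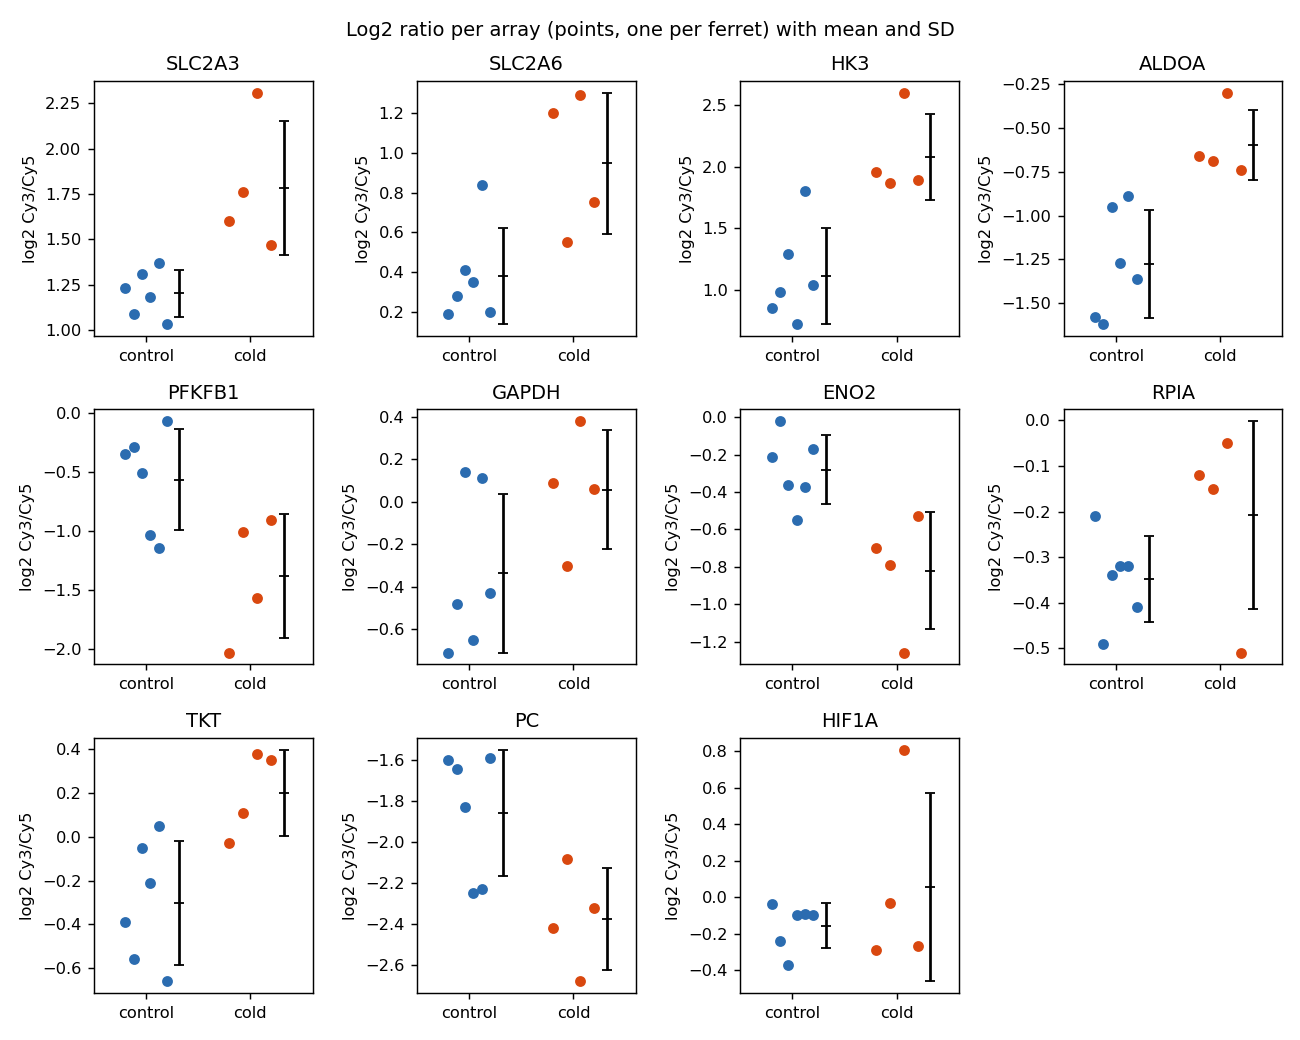
Log2 Cy3/Cy5 ratio (loess) of the 11 genes described in full, one point per ferret (6 control, 4 cold), with the group mean and SD as the black bar and y axes that differ between panels. SLC2A3, HK3 and ALDOA have all cold points above all control points, in HIF1A only cold replicate 3 stands high, and SLC2A3, ALDOA, TKT, GAPDH, RPIA and HIF1A change sign with median centring.

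Lower glycolysis, which yields ATP and NADH, was higher in cold on the loess scale and lower with median centring. GAPDH, PGK1, PGAM1, ENO1 and PKM were all higher with loess, by 0.30 to 0.57 with a median of 0.44. Of the 5, 4 had an unadjusted p under 0.05 (12.2% of all genes were higher at it) but none under 0.01 (5.21%). GAPDH, glyceraldehyde-3-phosphate dehydrogenase, had control ratios of -0.71, -0.46 and 0.14 and cold ratios of 0.09, -0.30, 0.38 and 0.06. Control replicates 3 and 5 were as high as most cold arrays, and cold replicate 2 was low. The change of 0.40 ± 0.20 (SE) had a limma p of 0.0676 (adjusted p = 0.233, exact permutation p = 0.110). In the Cy3 channel alone, without the reference, the groups did not overlap and GAPDH was 0.48 higher (adjusted p = 0.0384). PGK1, PGAM1 and ENO1 also passed the adjusted threshold in Cy3 alone, at 0.60, 0.59 and 0.61. With median centring the 5 genes lay between -0.72 (GAPDH) and -0.51 (PGAM1), and in the authors' table between -0.14 (PKM) and 0.068 (PGAM1). GAPDH is in the study's table as well, so its direction is not independent evidence, but that table gives another sequence for it, XM_004766702, than the one RefSeq names GAPDH, XM_004766704, whose values are given above. XM_004766702, which RefSeq does not name here and which is left out of all counts, had ratios of -0.03, 0.11 and 0.49 in control and 0.75, 0.41, 1.09 and 0.75 in cold. Only cold replicate 2 lay below a control, replicate 5. The change was 0.60 ± 0.13 (SE, limma p = 0.000918, adjusted p = 0.0731, exact permutation p = 0.00952), and it was above 0 under all 6 scalings, from 0.33 with median centring to 0.69 in Cy3 alone.

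ENO2, the neuronal enolase, was measured by the sequence XM_004766643 and is also in the study's table. Its control ratios were -0.55, -0.29 and -0.02 and its cold ratios -0.70, -0.79, -1.26 and -0.53. The groups touched only between cold replicate 4 and the lowest control, replicate 4. The change was -0.54 ± 0.14 (SE, limma p = 0.00329, adjusted p = 0.0867, exact permutation p = 0.00952), and it was below 0 under every scaling run. The limma p was under 0.01 with any single array left out, with median centring and in the authors' table, but not in Cy3 alone (limma p = 0.0126). ENO1, the common enolase, went the other way at 0.44. Within each array, ENO1 less ENO2 was therefore 0.98 higher in cold. The groups overlapped in this difference on the ratio scale, where control replicate 3 stood at 1.04 and cold replicate 4 at 1.00, but not in Cy3 alone. In none of the 9 enzyme pairs compared in this way did the groups separate on the ratio scale.

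In the pentose phosphate pathway, the genes with unadjusted p under 0.05 were TKT and PGD. TKT, transketolase of the non-oxidative branch, had control ratios of -0.66, -0.30 and 0.05 and cold ratios of -0.03, 0.11, 0.38 and 0.35. The overlap was small, between control replicate 5 and cold replicate 1. The change was 0.50 ± 0.15 (SE, limma p = 0.00667, adjusted p = 0.103, exact permutation p = 0.0238), with a p under 0.01 in only 4 of the 10 fits that left out 1 array and not by the methods' t-test. It was 0.72 in Cy3 alone, -0.62 with median centring and -0.030 in the authors' table. PGD, the NADPH-making 6-phosphogluconate dehydrogenase, was 0.41 higher (adjusted p = 0.117, and at -0.53 with median centring) and PGLS, the lactonase before it, 0.17 higher (adjusted p = 0.284). RPIA, ribose 5-phosphate isomerase and a gene of the study's table, had control ratios of -0.49, -0.33 and -0.21 and cold ratios of -0.12, -0.15, -0.05 and -0.51. Of the cold arrays 3 were above every control and cold replicate 4 was below all of them, which left a change of 0.14 ± 0.10 (SE, limma p = 0.188, adjusted p = 0.404, exact permutation p = 0.186). It ran from 0.087 without cold replicate 3 to 0.24 without cold replicate 4. The study's table gives another sequence for RPIA as well, XM_004742384, which was 0.22 ± 0.07 (SE) higher in cold without overlap (limma p = 0.0137, adjusted p = 0.126, exact permutation p = 0.00952) and above 0 under all 6 scalings. RPE, the epimerase, differed by -0.015.

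The 12 measured enzymes of the citrate cycle itself lay between -0.28 (ACO1, the cytosolic aconitase) and 0.33 (DLST, a subunit of the oxoglutarate dehydrogenase complex), 6 on either side of 0, and none had a limma p under 0.05. The isocitrate dehydrogenases IDH1 of the cytosol and IDH2 of the mitochondrion differed by 0.0086 and -0.15, and the subunits of succinyl-CoA ligase SUCLA2, SUCLG1 and SUCLG2 by -0.21, 0.14 and 0.085. IDH3B and IDH3G, subunits of the NAD-dependent isocitrate dehydrogenase, differed by -0.093 and -0.082, the malate dehydrogenases MDH1 and MDH2 by -0.083 and 0.093, and OGDH by 0.014. Among the enzymes that refill or drain the cycle, PC, pyruvate carboxylase, had control ratios of -2.25, -1.74 and -1.59 and cold ratios of -2.42, -2.08, -2.68 and -2.32. Only cold replicate 2 lay within the control range. The change of -0.52 ± 0.17 (SE, limma p = 0.0107, adjusted p = 0.118, exact permutation p = 0.0286) was the one with the lowest p among the citrate cycle genes, and it was below 0 under every scaling run. ME2, the mitochondrial malic enzyme, was 0.36 higher (adjusted p = 0.187) and PCK2, mitochondrial phosphoenolpyruvate carboxykinase, differed by -0.11 (adjusted p = 0.385). ME1, the cytosolic malic enzyme, had the widest spread of the 39 genes, from -5.20 to -1.91 in control and from -4.85 to -2.58 in cold. Only 1 of its 4 probes passed the filter, and its change was -1.24 in the ratio but 0.25 in Cy3 alone.

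**Figure D3:**
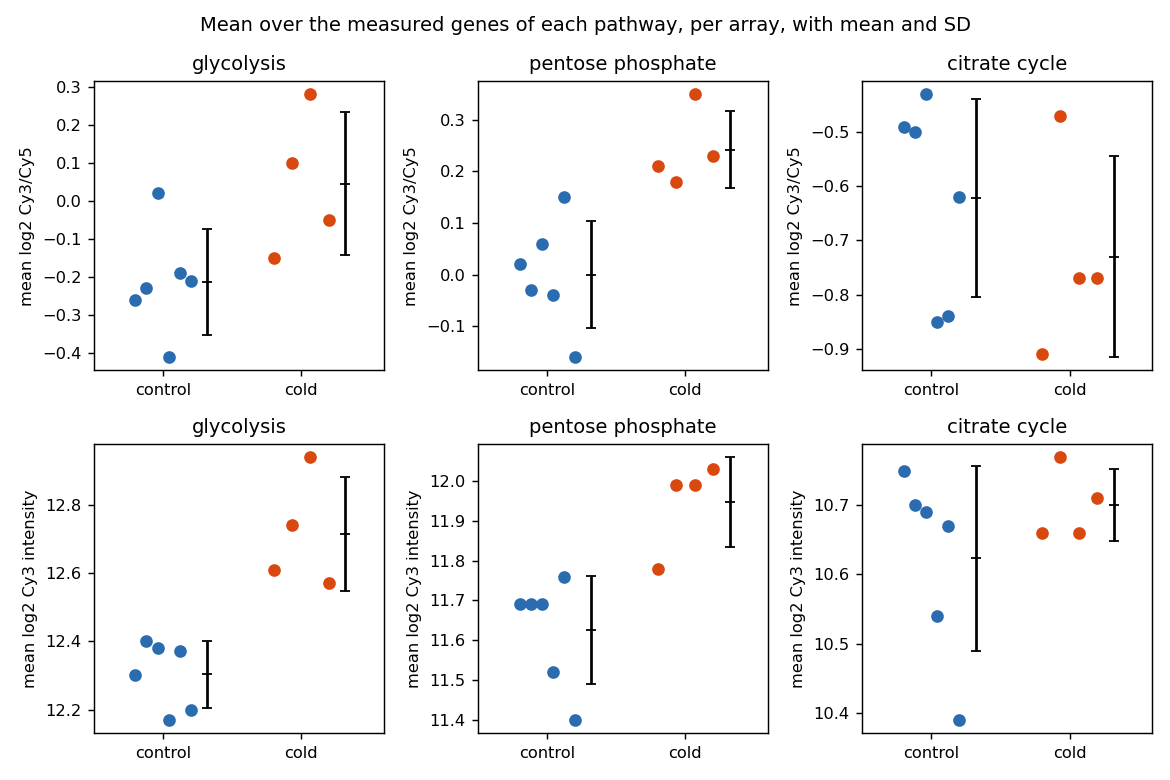
Mean over the measured genes of each pathway in each ferret (points, 6 control and 4 cold) with the group mean and SD, as the log2 Cy3/Cy5 ratio (top) and as log2 Cy3 intensity alone (bottom). Pentose phosphate means do not overlap between the groups on either scale, glycolysis means overlap in the ratio and not in Cy3 alone, and citrate cycle means overlap on both, but the medians of the first 2 pathways turn sign with median centring and in the authors' table.

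Averaged over its genes in each array, glycolysis ran from -0.41 to 0.02 in control and from -0.15 to 0.28 in cold. The groups overlapped in cold replicate 1 and cold replicate 4 against control replicate 3. Pentose phosphate means ran from -0.16 to 0.15 in control and from 0.18 to 0.35 in cold, without overlap. The citrate cycle ran from -0.85 to -0.43 in control and from -0.91 to -0.47 in cold. Taking glycolysis less citrate cycle within each array, which does not change with a constant added to an array, gave 0.23 to 0.64 in control and 0.56 to 1.05 in cold. Only cold replicate 2, at 0.56, fell below the highest control. In Cy3 alone the same difference ran from 1.55 to 1.82 in control and from 1.86 to 2.28 in cold. The median of glycolysis lay above that of the citrate cycle under each of the 6 scalings, by 0.25 with median centring, 0.31 in the authors' table, 0.41 in Cy3 alone and 0.46 with loess.

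**Figure D4:**
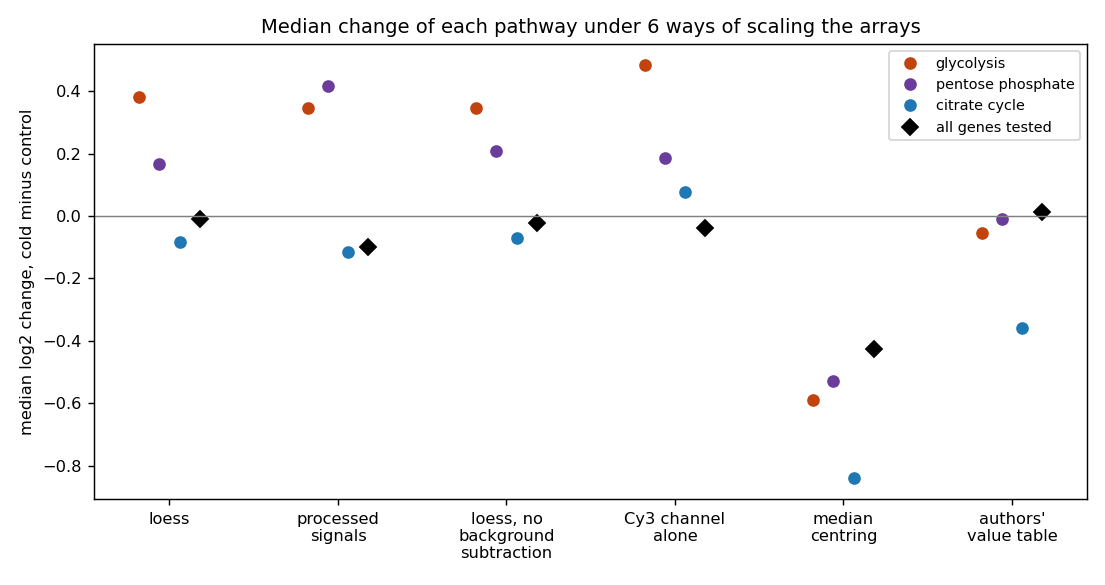
Median log2 change, cold minus control, of the measured genes of each pathway (circles) and of all genes tested (diamonds) under 6 ways of scaling the arrays. The order of glycolysis above citrate cycle is the same in all 6, while the sign of the glycolysis median turns with median centring (-0.59, where all genes stand at -0.43) and in the authors' table (-0.053).

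In the Cy3 channel alone, quantile normalised, 32 of the 39 genes were higher in cold (82.1%, as against 42.9% of all genes). Of the 39, 8 had a limma p under 0.01, all of them higher (9.84% of all genes did, 5.48% higher), and 6 had an adjusted p under 0.05 (2.82% of all genes). The 6 were HK3, ALDOA, GAPDH, PGK1, PGAM1 and ENO1, and PGD and TKT made up the 8. With the same pool on every array, the quantile-normalised Cy5 channel itself differed between the groups by a median of 0.09 over the 39 genes, from -0.14 to 0.32. The median Cy5 intensity of an array ran from 44 to 80 in control and from 48 to 152 in cold, and Cy3 from 210 to 281 in control and from 205 to 246 in cold. With the log2 of that Cy5 intensity added to the fit, none of the 39 genes had a p under 0.01 (2.66% of all genes did), and the glycolysis median was 0.40. In this fit, which was chosen after seeing the data, PFKFB1 was at -0.25, SLC2A6 at 0.21, GAPDH at 0.15 and PC at -0.21, while HK3 was at 0.75, ALDOA at 0.53 and SLC2A3 at 0.56. The glycolysis median was 0.25 above that of the citrate cycle, as against 0.46 without it. The part of the Cy5 brightness in these results was not tested further.

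HIF1A itself was not clearly different. Control ratios were -0.37, -0.10 and -0.04 and cold ratios -0.29, -0.03, 0.81 and -0.27. Cold replicate 3 stood far above all the others and the remaining cold arrays lay within or at the edge of the control range. The change was 0.21 ± 0.19 (SE, limma p = 0.293, adjusted p = 0.525, exact permutation p = 0.424), and it was -0.041 without cold replicate 3. Of the other genes of its pathway, 5 of 9 listed were tested. An unadjusted p of 0.01, which 8.64% of all genes passed (5.21% higher), was passed by 1 of the 5. This was EGLN3, a prolyl hydroxylase that marks HIF subunits for degradation and is itself known as a HIF target. Its ratios were 0.30, 0.37 and 0.52 in control (lowest, median, highest) and 1.16, 0.76, 1.91 and 1.14 in cold. All cold values were above all control values, a change of 0.84 ± 0.18 (SE, adjusted p = 0.0686, exact permutation p = 0.00476), which stayed between 0.59 and 0.93 under the 6 scalings.

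Genes of the pathways that are not among the 54 were taken from lists written from general knowledge. For glycolysis 13 of 35 were tested, with 4 higher and 9 lower and a median of -0.17 (0.17 in the authors' table). An unadjusted p of 0.01 was passed by 1 (7.69%, as against 8.64% of all genes). It was SLC16A7, a monocarboxylate transporter of lactate and pyruvate, 0.71 ± 0.20 (SE) higher in cold (adjusted p = 0.0930). At 0.05, 1 was higher (12.2% of all genes were) and 3 (23.1%) were lower (12.5% of all genes were). Those lower were SLC2A4 (-0.79), SLC2A12 (-0.22) and SLC2A13 (-0.52, but 0.36 in Cy3 alone). For the pentose phosphate pathway 4 of 11 were tested and 2 passed an unadjusted p of 0.01, 1 higher and 1 lower (5.21% and 3.43% of all genes). RBKS, ribokinase, was 0.29 ± 0.08 (SE) higher (adjusted p = 0.0908), whereas PRPS1, which makes the ribose donor of nucleotide synthesis, was at -0.51 ± 0.16 (SE, adjusted p = 0.115). SLC16A7, RBKS and PRPS1 kept their direction under all 6 scalings. For the citrate cycle 11 of 17 were tested and none passed an unadjusted p of 0.01, while 1 was lower at 0.05.

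Marker genes of blood cell types also differed between the same arrays. All 9 tested neutrophil genes of 15 listed were higher in cold with loess, 5 of them (S100A8, S100A9, LCN2, MPO and CEBPE) at an unadjusted p under 0.01 (for this and the next lists, 5.21% of all genes were higher and 3.43% lower at it), and their mean ran from 0.43 to 1.04 in control and from 1.41 to 1.82 in cold, without overlap. Of the monocyte genes 6 of 8 were tested and 5 were higher, with means of -0.03 to 0.52 in control and 0.42 to 1.10 in cold. VCAN (1.29) and CD14 (0.66) had an unadjusted p under 0.01. LYZ (0.60), CD68 (0.485) and CSF1R (0.29) were higher without reaching it, and CD163 was lower (-0.62) but at 0.49 in Cy3 alone. All 7 platelet genes tested of 10 were higher, with means of -0.05 to 1.37 and 0.89 to 1.81, and GP9 (0.87), GP1BB (1.02) and TREML1 (1.27) had an unadjusted p under 0.01. The median of the neutrophil genes stayed above 0 under all 6 scalings, at 0.08 with median centring, as did that of the platelet genes, whereas the monocyte median turned to -0.50 with median centring. The medians of the T cell, B cell and red cell genes were -0.36, -0.064 and -0.35 with loess, -0.61, -0.56 and -1.37 in Cy3 alone, and -1.35, -0.95 and -1.24 with median centring. That of the red cell genes was -1.66 with processed signals. Of the T cell genes 10 of 11 were tested and 9 were lower, with means of -0.15 to 0.13 in control and -0.84 to -0.14 in cold, and cold replicate 3 was by far the lowest. LCK (-0.75) was the only T cell gene with an unadjusted p under 0.01, and 6 of the 10 were lower at 0.05 (12.5% of all genes were). In Cy3 alone all 10 were lower, 7 of them with a limma p under 0.01 (9.84% of all genes in either direction). The 5 tested B cell genes of 7 had means of -0.13 to 1.36 and 0.41 to 0.92, the 3 NK and cytotoxic genes of 7 of 0.18 to 1.19 and 0.04 to 1.12, and the 5 red cell genes of 10 of 0.27 to 1.03 and -0.59 to 0.39. Of the 5 red cell genes 4 were lower, 3 of them at an unadjusted p under 0.05 (12.5% of all genes were lower at it). HBM, a globin gene, differed by -2.57 with all cold values below all control values (adjusted p = 0.0576). ALAS2 differed by -1.12, SLC4A1 by -0.35 and EPB42 by -0.095, while RHAG was higher by 1.04 (adjusted p = 0.126). Monocytes also express S100A8 and S100A9, and MPO and CEBPE are known from immature granulocytes. The other 4 neutrophil genes were CXCR2 (0.82) and S100A12 (0.81), which had an unadjusted p under 0.05, and CSF3R (0.40) and MMP9 (0.19), which did not. A Ficoll gradient is meant to leave most neutrophils out of PBMC. HK3, which myeloid cells express, was higher on the same arrays as these genes. The part of cell composition in the changes of the 39 genes was not tested.

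**Figure D5:**
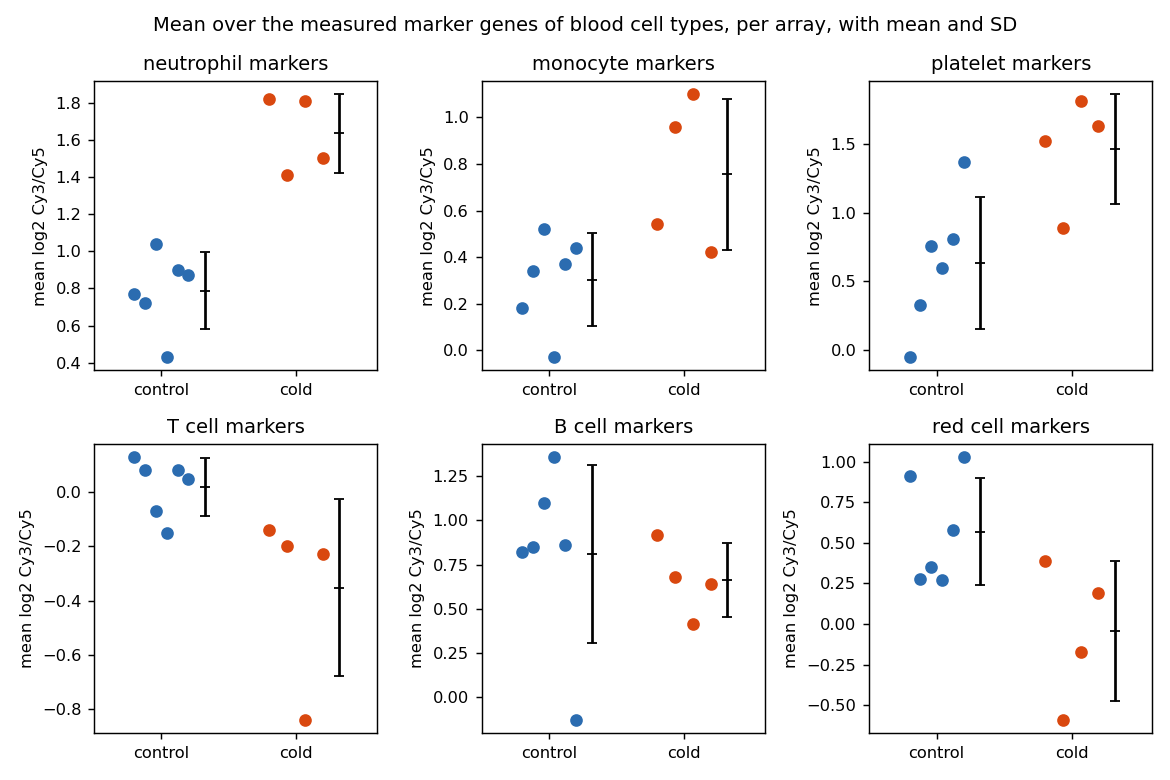
Mean log2 Cy3/Cy5 ratio (loess) over the measured marker genes of 6 blood cell types in each ferret (points, 6 control and 4 cold), with the group mean and SD. Neutrophil marker means do not overlap between the groups, and T cell marker means are lowest in cold replicate 3, while the monocyte median turns sign with median centring (-0.50).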

How the data were processed

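The authors deposited, for each of the 10 arrays, spot intensities of both channels with flags, written by Agilent Feature Extraction 10.7.3.1, and a log2 table with 1 value for each sequence and array. Compared with the intensities, the deposited table holds the log2 Cy3 less log2 Cy5 intensity with a slope of 1, and so has its direction; its constants per array (column medians of 7.87 to 8.78) and per sequence are unknown. The files hold no mean signal, so the median was used in its place. No genome build of the array is given in the sources used here, and no coordinates are printed. Work was done in R 4.3.3 with limma 3.58.1, and the normexp method (offset 50) corrected the background. Control spots were left out, the log2 ratio was loess-normalised within each array (span 0.3, 4 iterations), outlier spots were left out, and spots, then probes, were averaged per gene. Probes had to be well above background in Cy3 on 4 or more arrays, in a share of 0.5 or more of their spots, and 36 of the 39 genes met this on all 10 arrays (the others were PFKFB1, PCK2 and ME1). Names came from the RefSeq table of ferret genes through the accession of each sequence.

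The share of bright spots, well above background, was 50.4 to 63.5% in Cy3 and 27.0 to 64.0% in Cy5. Arrays are separate animals on 10 slides, scanned on 1 day, so neither slide nor scan could be a block. Cold and control were compared with limma (lmFit, eBayes, Benjamini-Hochberg over all 26303 genes), tested on simulated data, with exact permutation tests over 210 splits for genes described in full. Described in full were members with an unadjusted p under 0.01, those in the study's energy metabolism table, HIF1A, and the lowest p of a pathway with none under 0.01. The other measured members are given by their change, as are genes of the other lists with a p under 0.01 and some of those above it. The values of EGLN3 per array, and the sequences that the study's table gives for GAPDH and RPIA, were added after the values had been seen. The members and lists were chosen with earlier results of these data known. The alternatives were other intensities, background, scaling, filters, summaries, tests, weights and blocks, and each array left out.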

Additional observations from a re-analysis of the deposited data

Results flagged for a closer look

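In 28 groups of values examined, 2 had a sample far from the others, where chance picks out about 1 in 20. HK3 in cold replicate 3 had a log2 ratio of 2.60, with the next cold ferret at 1.96. SLC2A6 in control replicate 5 stood at 0.84, with the next control ferret at 0.41.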

How the results depend on the processing

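HK3, ALDOA and SLC2A3, which were higher in cold, and ENO2, which was lower, kept a limma p under 0.01 with any single array left out. ENO2 also kept it with median centring (limma p = 0.00376) and in the authors' table (limma p = 0.00340). HK3, ALDOA and SLC2A3 lost it in both. The number of the 39 genes at an unadjusted p under 0.01, 5 with loess, was 2 with the processed signals (5.72% of all genes), 0 with median centring (4.42%), 8 with Cy3 alone (9.84%), 0 in the authors' table (4.16%), 3 with the median over probes (8.60%) and 3 with the methods' t-test (6.56%). It ran from 3 (without control replicate 1, control replicate 2 or cold replicate 3, with 4.85 to 5.72% of all genes) to 9 (without control replicate 5, with 12.7%) when 1 array was left out. The number with an adjusted p under 0.05, 0 with loess, was 6 with Cy3 alone, and ran from 0 to 2 with 1 array left out (HK3 and ALDOA without control replicate 5, where 2.41% of all genes passed, and 1 gene, HK3, without cold replicate 2, where 4.84% did). Of 2 settings chosen after seeing the data, the Cy5 intensity as a covariate gave 0 genes at an unadjusted p under 0.01 (2.66% of all genes) and leaving out cold replicates 1 and 3 gave 1 (2.70%). The cause was not tested.

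The median change of glycolysis was -0.59 with median centring and -0.053 in the authors' table, and ran from 0.30 to 0.41 with 1 array left out. That of the pentose phosphate pathway was 0.42 with processed signals, -0.53 with median centring and -0.011 in the authors' table, and 0.13 to 0.24 with 1 array left out. That of the citrate cycle was -0.84 with median centring, -0.36 in the authors' table and 0.15 with the Cy5 covariate, and -0.13 to -0.02 with 1 array left out. Median centring moved the median of all genes to -0.43 (81.5% of genes at a p under 0.01 were lower, against 39.7% with loess, 57.5% with processed signals and 53.8% in the authors' table), and glycolysis was then at -0.16 and the citrate cycle at -0.42 relative to it. It turned ALDOA to -0.48, SLC2A3 to -0.34, TKT to -0.62, GAPDH to -0.72, RPIA to -0.084 and HIF1A to -0.46. The authors' table turned TKT to -0.030, GAPDH to -0.12 and HIF1A to -0.011, and leaving out cold replicate 3 turned HIF1A to -0.041 (up to 0.33, without cold replicate 1). Over the single genes and settings, 190 of 263 values kept direction and side of the threshold, 57 lost the threshold, 6 gained it and 10 reversed.

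With the replicate number as a block, 8 of the 39 genes and 9.35% of all genes had an unadjusted p under 0.01. The numbers do not pair the samples, since same-numbered arrays correlated at -0.30, 0.54, 0.10 and -0.19 (deviations from the group means, across genes). Dim genes such as ME1 and PFKFB1 are limited by the signal over background.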
